A study of Mus musculus with 6 samples.

Results

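The genes described here are Kif27 and Cfap44, which code for proteins of the cilium. Of the 90752 probes on the array, 2 are paired with them in the study's list, and further probes for them could not be recognised. The genes were taken from the study's own list of probes that differed after DMDD treatment, where each symbol stands beside 1 probe. They were thus chosen by the fold change and p-value of the same contrast on the same 6 arrays. Their differences between the groups are therefore given as a description, without a test. The study asked which hippocampal transcripts change when diabetic mice are given DMDD, a quinone purified from the roots of Averrhoa carambola. Hippocampal RNA of male db/db mice aged 14 weeks was hybridized to a 1-colour lncRNA and mRNA array, 1 array per mouse. All mice were db/db, a strain that becomes obese and diabetic because its leptin receptor is mutated, and no lean mouse was on these arrays. The 3 mice of the db/db-vehicle group had received 1% Tween 80 by gavage, and the 3 mice of the db/db-DMDD group had received DMDD at 50 mg/kg per day, once daily for 28 days.

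Cilia are thin projections of the cell surface built around a bundle of microtubules, the axoneme. In the brain, most neurons and astrocytes carry a single immotile cilium that serves Hedgehog and other signals, whereas the ependymal cells that line the ventricles carry tufts of motile cilia that move cerebrospinal fluid. Kif27 is a kinesin related to Kif7 and to the fly Hedgehog component Costal-2, and in mice it works with the kinase Stk36 in building motile cilia. Cfap44 is a protein with WD repeats that, together with Cfap43, tethers an inner dynein arm of the axoneme, and its loss disturbs the sperm flagellum. The RNA came from whole dissected hippocampus, so fewer cells of a type and less RNA per cell cannot be told apart.

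The probes are shown first, because each gene was read here through a single listed sequence of 60 bases, spotted at 2 places on every array. Both are printed 5′ to 3′ as deposited, in lower case throughout.
Kif27, probe MOUSELNCRNA_59570: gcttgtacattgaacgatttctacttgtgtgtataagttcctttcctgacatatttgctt
Cfap44, probe MOUSELNCRNA_77436: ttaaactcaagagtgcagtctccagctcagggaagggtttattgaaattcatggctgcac
G or C made up 21 of the 60 bases of the Kif27 probe and 27 of those of the Cfap44 probe. A run of 20 bases from either probe was found in 0 other probes of the array, on either strand. A probe elsewhere in the same transcript need share no such run, so a second measurement of either gene could not be recognised. Neither probe lay in a promoter window of the reference table. The exon or intron in which each probe lies was not determined, since no genome or transcript sequence was used. In GRCm38.p6, Kif27 spans bases 58284727 to 58364745 of chromosome 13 on the minus strand, and Cfap44 spans bases 44394742 to 44482694 of chromosome 16 on the plus strand.

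The arrays are described next, because 2 features of the series bear on both genes. Slide 1 carried all 3 vehicle arrays together with db/db-DMDD 1, and slide 2 carried db/db-DMDD 2 and 3, so slide and treatment overlap in part. Earlier work on these files found that the values in the study's list follow a grouping in which db/db-DMDD 1 stands among the vehicle arrays and db/db-vehicle 3 among the DMDD arrays. That comparison was not repeated here, and the arrays alone do not show which grouping follows the mice. The group differences are therefore given for the labels and for this exchange, and those with an array left out or with a block for the labels alone. The number of probes well above background ranged from 65405 to 71323 per array and was lowest on the 2 arrays of slide 2, at 65405 and 65517. Pairs of arrays correlated at 0.989 to 0.996 over the 67732 probes that were tested.

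Kif27 was detected in every hippocampus. All 12 of its spots were well above background, and 0 were saturated or marked as outliers. On the scanner's linear scale, before normalization between arrays, the processed signals of its spots ranged from 34.5 on db/db-DMDD 1 to 76.3 on db/db-DMDD 3. The median processed signal of all spots was 46.7 to 58.5 per array. The raw mean brightness of its spots ranged from 59.0 to 104 against a local background of 17 to 21. After quantile normalization, the log2 signal of Kif27 was 5.38, 5.73 and 5.86 in db/db-vehicle 1, 2 and 3. It was 5.13, 6.19 and 6.24 in db/db-DMDD 1, 2 and 3. The DMDD group thus held both the lowest array and the 2 highest arrays, and the groups overlapped.

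Cfap44 followed the same course at low but detected signal. All 12 of its spots were well above background, with processed signals from 21.0 on db/db-vehicle 1 to 45.0 on db/db-DMDD 2 and with 0 saturated spots and 0 outliers. Its raw mean brightness ranged from 47.5 to 72.7 against a local background of 17 to 20. The log2 signal was 4.65, 4.97 and 5.08 in db/db-vehicle 1, 2 and 3, and 4.61, 5.49 and 5.39 in db/db-DMDD 1, 2 and 3. Again db/db-DMDD 1 was the lowest of all arrays, db/db-DMDD 2 and 3 were the highest, and the groups overlapped.

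**Figure D1:**
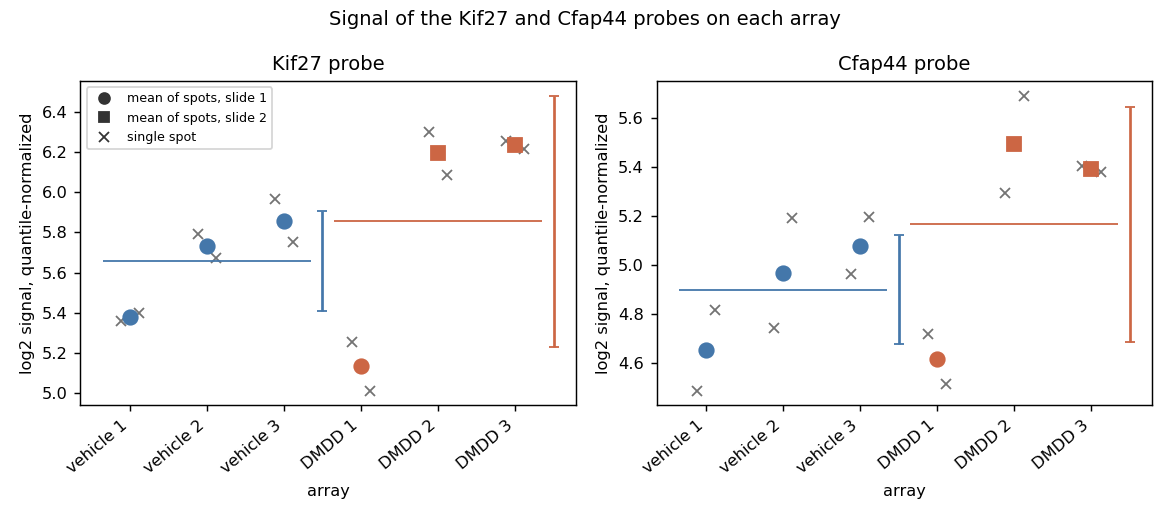
Log2 signal (y axis, quantile-normalized) of the Kif27 and Cfap44 probes on each array (x axis). Filled symbols are the mean of the 2 spots (circles slide 1, squares slide 2), crosses are single spots, horizontal lines are group means and bars are 1 SD (n = 3). In both panels db/db-DMDD 1 is the lowest array and the squares, db/db-DMDD 2 and 3, are the highest.

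The 2 spots of a probe on 1 array share the labelled RNA, the hybridization and the slide, so their gap shows the error between spots and not that between arrays. For Kif27 they differed by 0.040 to 0.24 on the log2 scale, with a median of 0.17, and the within-array SD was 0.12. For Cfap44 they differed by 0.025 to 0.45, with a median of 0.28, and the within-array SD was 0.22. From the lowest to the highest array, Kif27 ranged over 1.10 and Cfap44 over 0.88 on the log2 scale, more than the largest gap between their spots. That range holds differences between mice, arrays and slides together, which cannot be told apart with 1 array per mouse. The spots of Cfap44 scattered more than those of Kif27.

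With the groups as labelled, the mean log2 signal of Kif27 was 5.66 ± 0.25 (SD, n = 3) for db/db-vehicle and 5.85 ± 0.62 (SD, n = 3) for db/db-DMDD. The log2 difference, DMDD minus vehicle, was 0.20 with a standard error of 0.31 by limma, or 1.15-fold. Cfap44 was at 4.90 ± 0.22 (SD, n = 3) and 5.17 ± 0.48 (SD, n = 3), a log2 difference of 0.27 with a standard error of 0.25, or 1.20-fold. For both genes the difference was smaller than the SD of the DMDD group, within which db/db-DMDD 1 stood apart. Of the 2 genes, 0 passed the study's thresholds of an unadjusted p under 0.05 and an absolute log2 difference of at least 0.5, which 0.918% of the tested probes passed. All DMDD arrays lay above all vehicle arrays for 0 of the 2 genes and for 3.24% of the tested probes. Among the tested probes, 11.2% had a log2 difference at least as high as that of Kif27 and 6.84% at least as high as that of Cfap44. Computed from each spot position alone, the difference was 0.23 and 0.16 for Kif27 and 0.41 and 0.13 for Cfap44, and with the exchange described next 0.71 and 0.66 for Kif27 and 0.57 and 0.58 for Cfap44.

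When db/db-vehicle 3 and db/db-DMDD 1 changed places, the arrays of the groups no longer overlapped for either gene. Kif27 was then at 5.42 ± 0.30 (SD, n = 3) in the vehicle group and 6.10 ± 0.21 (SD, n = 3) in the DMDD group, a log2 difference of 0.68 (standard error 0.18), or 1.60-fold. Cfap44 was at 4.74 ± 0.19 (SD, n = 3) and 5.32 ± 0.22 (SD, n = 3), a log2 difference of 0.58 (standard error 0.15), or 1.49-fold. The separation was narrow, since the lowest DMDD array and the highest vehicle array of this grouping, db/db-vehicle 3 and db/db-vehicle 2, stood at 5.86 and 5.73 for Kif27 and at 5.08 and 4.97 for Cfap44. In this grouping 2 of the 2 genes passed the study's thresholds, as did 1.36% of the tested probes, and all DMDD arrays lay above all vehicle arrays for 4.89% of them. The genes come from the study's list, chosen on these arrays, and this grouping is the one that the values of that list follow. Both choices favour a separation, so nothing is read from it or from these counts.

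The difference under the labels varied with the array left out. Without db/db-DMDD 1, which was the lowest array for both genes, the log2 difference was 0.56 (standard error 0.16) for Kif27 and 0.54 (standard error 0.15) for Cfap44, and both then passed the study's thresholds, as did 3.17% of the tested probes. That comparison sets the 2 arrays of slide 2 against 3 arrays of slide 1, so slide and treatment cannot be told apart in it. Without db/db-DMDD 3 it was 0.0072 for Kif27 and 0.16 for Cfap44, and without db/db-DMDD 2 it was 0.028 and 0.10. Without db/db-vehicle 1 it was 0.058 for Kif27 and 0.14 for Cfap44. The remaining 2 vehicle arrays, left out in turn, gave 0.24 and 0.30 for Kif27 and 0.30 and 0.36 for Cfap44.

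The signal of both genes differed between the slides. On slide 1, which held 4 arrays, Kif27 ranged from 5.13 to 5.86 and Cfap44 from 4.61 to 5.08. The 2 arrays of slide 2 stood at 6.19 and 6.24 for Kif27 and at 5.49 and 5.39 for Cfap44, above every array of slide 1. Both arrays of slide 2 lay above all arrays of slide 1 for 13.1% of the tested probes. Within slide 1, where db/db-DMDD 1 alone stands against the 3 vehicle arrays, the difference had the opposite sign, at -0.52 (standard error 0.21) for Kif27 and -0.28 (standard error 0.19) for Cfap44. With slide as a fixed block, which gives these values, Kif27 passed the study's thresholds in the opposite direction and Cfap44 did not, while 1.7% of the tested probes passed in either direction. The standard errors rest on a DMDD arm of 1 array, which was assumed to vary like the others. Within the DMDD label, the mean of the slide 2 arrays exceeded db/db-DMDD 1 by 1.08 for Kif27 and 0.83 for Cfap44. With slide as a random block the difference was 0.058 (standard error 0.31) for Kif27 and 0.16 (standard error 0.25) for Cfap44. Slide 2 held no vehicle array, and the part of the slide in the signal of either gene was not tested.

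**Figure D2:**
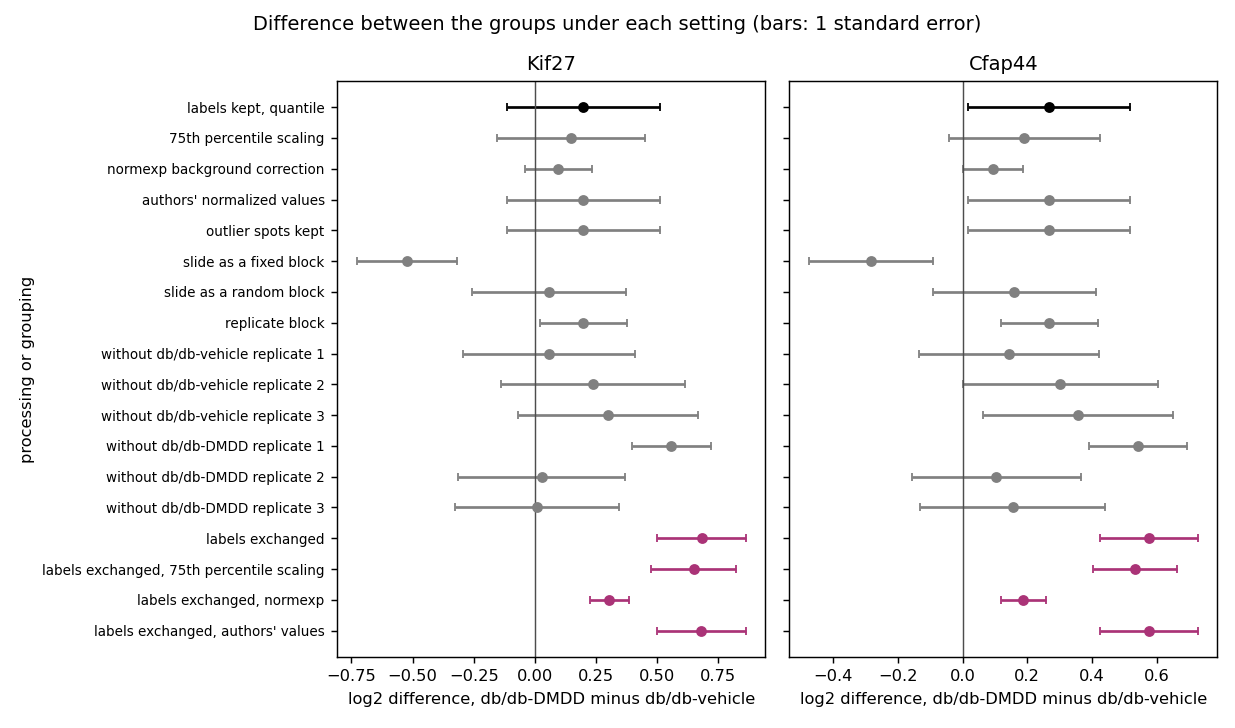
Log2 difference, db/db-DMDD minus db/db-vehicle (x axis), of Kif27 and Cfap44 by processing or grouping (y axis). Other filters and unshrunk variances, which left the differences at 0.20 and 0.27, are not shown. With unshrunk variances the standard errors were 0.39 for Kif27 and 0.31 for Cfap44. Points are estimates from limma, bars are 1 standard error, black is the quantile-normalized value with labels kept, grey the other settings with labels kept and purple the exchanged labels. The value is below 0 with slide as a fixed block (-0.52 and -0.28) and highest with the labels exchanged (0.68 and 0.58).

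Both differences were smallest with normexp correction among the normalizations tried. Normexp correction, which adds an offset of 50 to the signal, gave 0.096 for Kif27 and 0.094 for Cfap44 with the labels, and 0.30 and 0.19 with the labels exchanged. After this correction 0 of the 2 genes passed the study's thresholds in either grouping, against 0.031% of the tested probes with the labels and 0.298% with the exchange. Scaling by the 75th percentile gave 0.15 and 0.19 with the labels and 0.65 and 0.53 with the exchange, and the authors' own normalized values gave 0.20 and 0.27 with the labels and 0.68 and 0.58 with the exchange. The sign with the labels was the same under all 4 normalizations. The authors' values are also quantile-normalized, from the same arrays, and so nearly repeat the main values.

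The genes tracked each other across the mice. Over the 6 arrays the log2 signals of Kif27 and Cfap44 had a Pearson r of 0.978 and a Spearman rho of 0.943, and within the 4 arrays of slide 1 the Pearson r was 0.970. Without db/db-DMDD 1 and db/db-DMDD 3, the arrays farthest from the Kif27 median, r was 0.995. On slide 1 both genes had the same order, with db/db-DMDD 1 lowest, followed by db/db-vehicle 1, 2 and 3. Of the tested probes other than Kif27, Cfap44 among them, 0.0679% had an r with Kif27 at least as high as Cfap44 had. This likeness is a description of 6 arrays that share their RNA and slide for both probes, and both genes were listed for the same contrast on them.

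Among the probes of the study's list, the patterns most like Kif27 over the 6 arrays were those of the lncRNA NONMMUG021440 (r = 0.981), of Cfap44 and of the lncRNA NONMMUG018363 (r = 0.976). Those most like Cfap44 were NONMMUG018363 (r = 0.995), Klhl33, a gene of the kelch-like family (r = 0.982), and the lncRNA ENSMUSG00000077682 (r = 0.982). All of them were listed for the contrast that gave Kif27 and Cfap44, which alone favours a high r. NONMMUG018363 stood near the top for both genes.

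The other parts of the cilium could not be followed on these arrays. The files pair no probe with a gene symbol, and the list of the study held 1 of 28 Cfap genes, Cfap44 itself, and 1 of 18 genes of the Kif27 and Hedgehog list, Kif27 itself. It held 0 of the 34 symbols for axonemal dynein arms, 0 of 13 for dynein arm assembly, 0 of 24 for radial spokes, nexin links and central pair, 0 of 15 for ciliogenesis regulators and 0 of 26 for intraflagellar transport. Foxj1, the forkhead factor that drives motile ciliogenesis, the partners Stk36 and Cfap43 and the paralogue Kif7 therefore have no values here. The same holds for the markers of ependymal cells, which bear motile cilia, and of choroid plexus, with 0 of 12 and 0 of 16 symbols found. Markers of neurons, astrocytes, oligodendrocytes, microglia and endothelial cells gave 0 as well, so the labelled tissue was not checked against its markers.

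Blood cell genes were the only marker list with values, and their summed signal ran opposite to that of both cilium genes. Of its 13 symbols 4 were found, which are Cd3g of the T cell receptor complex, the neutrophil proteases Elane and Mmp8, and Retnlg, a resistin-like protein of neutrophils, while the haemoglobin genes were not found. All 4 come from the study's list, so this contrast chose them too. That list held 155 of the 67732 tested probes. The marker lists were chosen with earlier results of these data known, so nothing is read from the count of 4. Their summed linear signal was 337, 321 and 226 in db/db-vehicle 1, 2 and 3 and 327, 162 and 162 in db/db-DMDD 1, 2 and 3. Retnlg made up 70.5% to 80.9% of this sum, and the other 3 genes together gave 87.3, 61.2 and 50.5 in db/db-vehicle 1, 2 and 3 and 89.1, 47.9 and 41.5 in db/db-DMDD 1, 2 and 3. Both sums were lowest on the arrays where Kif27 and Cfap44 were highest, and the part of blood cells in their signal was not tested. The log2 signals were low, at 3.70 to 4.58 for Cd3g, 3.88 to 4.85 for Elane and 3.71 to 5.28 for Mmp8. Mmp8 stood at 3.78 and 3.71 on db/db-DMDD 2 and 3. A tested probe need be well above background on only 3 arrays, so values of these 3 genes may lie near the floor. With the labels, the log2 difference was 0.0071 for Cd3g, -0.23 for Elane, -0.37 for Mmp8 and -0.60 for Retnlg, and with the exchange -0.58, -0.63, -1.01 and -0.89.

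**Figure D3:**
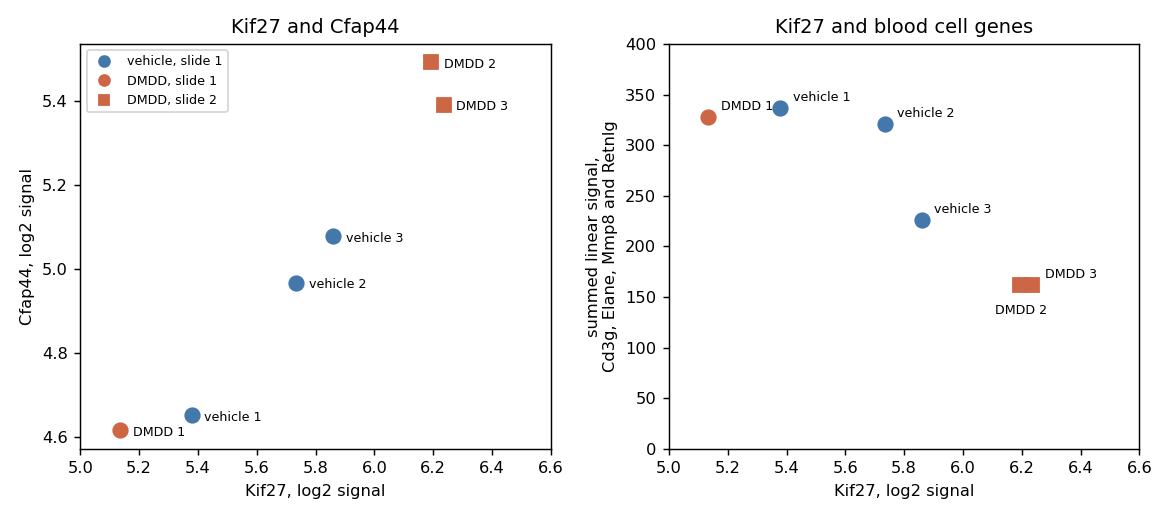
Left, log2 signal of Cfap44 (y axis) against Kif27 (x axis), and right, summed linear signal of Cd3g, Elane, Mmp8 and Retnlg (y axis) against the log2 signal of Kif27 (x axis), 1 point per array. Blue is db/db-vehicle, orange db/db-DMDD, circles slide 1 and squares slide 2. The signals of Kif27 and Cfap44 run together (r = 0.978), and the summed blood cell signal is lowest, at 162, on db/db-DMDD 2 and 3.

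Promoter sequence was compared because the signals of both genes ran together and because genes of motile cilia are known targets of RFX factors, which bind a palindromic site called the X-box, and of Foxj1. The windows run from 250 bases before to 50 bases after a start site in RefSeq on GRCm38.p6, and each gene had 1 window. They are printed 5′ to 3′ on the strand of the gene, with a match to the X-box letters, GTTNC and GNAAC around any 4 bases, in capitals.
Cfap44, chr16:44394549-44394848, plus strand: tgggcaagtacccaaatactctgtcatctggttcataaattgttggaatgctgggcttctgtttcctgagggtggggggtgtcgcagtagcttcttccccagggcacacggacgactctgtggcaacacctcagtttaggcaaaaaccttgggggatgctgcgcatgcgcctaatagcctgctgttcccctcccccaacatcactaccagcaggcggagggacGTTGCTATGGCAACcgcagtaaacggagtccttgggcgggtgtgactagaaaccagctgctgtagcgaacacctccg
Kif27, chr13:58354898-58355197, minus strand: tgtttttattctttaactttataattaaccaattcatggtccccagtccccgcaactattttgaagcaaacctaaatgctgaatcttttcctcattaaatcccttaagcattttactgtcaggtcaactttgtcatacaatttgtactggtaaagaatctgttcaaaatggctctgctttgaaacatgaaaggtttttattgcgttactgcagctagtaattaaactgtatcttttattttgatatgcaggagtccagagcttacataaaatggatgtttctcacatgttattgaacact
The Cfap44 window held 1 match, GTTGCTATGGCAAC, which ran from 27 to 14 bases before the start site. The Kif27 window held 0 matches. Of all 32851 windows of this length, 1.03% held these letters on either strand. The letters were chosen after the Cfap44 window had been seen, and the stricter form with CATG between the same letters, which 0.128% of windows held, was in neither. The forkhead letters GTAAACA, searched on both strands, were in neither window and in 3.65% of all windows.

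The windows also differed in composition. That of Cfap44 held 56.0% G or C with 12 CG dinucleotides, and its start site lay 57 bases inside the annotated gene. That of Kif27 held 33.3% G or C with 2 CG dinucleotides, and its start site lay 9798 bases inside the outermost annotated end of the gene. The Kif27 window is thus not the one at the far end of the gene. The absence of the letters in it says nothing of other start sites. Whether this window acts as a promoter was not tested, so the contrast with Cfap44 describes the 2 printed sequences alone. Among the other genes of the cilium lists that have a window, the X-box letters were found for 11 of 103, against 1.19% of all genes in the reference table. They include Cfap45, Cfap57 and Cfap61 among 19 Cfap genes, and the assembly factors Dnaaf2, Dnaaf6 and Dnaaf6b among 8. The list headed radial spokes, nexin links and central pair adds the central pair genes Hydin and Spag16, and Tekt4 and Iqca, among 20 genes. The 11 also include Ccdc151, a docking factor for outer dynein arms, as the only 1 of 22 genes for axonemal dynein arms. The letters were found for 0 of 12 ciliogenesis regulators, 0 of 22 genes for intraflagellar transport and 0 of 13 of the Kif27 and Hedgehog list. A match describes letters in these windows and was not measured as binding in the hippocampus.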

How the data were processed

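RNA from the hippocampus of 6 db/db mice, 3 for each treatment, was measured in 1 colour (Cy3). The authors deposited the scanner intensity of every spot (background-subtracted, detrended, linear, not normalized between arrays; Feature Extraction 12.0.3.1 per the file headers, 10.7 per the labels) and 1 table of log2 values, quantile-normalized by the authors, whose columns had medians of 5.74 and correlated at 0.9985 or above with the log2 intensity of their own array. How spots were averaged there is not given in the sources used here.

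Log2 processed intensities were quantile-normalized with limma 3.58.1 in R 4.3.3, leaving out control and outlier spots, and spots of a probe were averaged. Probes were kept if 3 or more of the 6 arrays put them well above background, and the resulting 67732 were fitted with lmFit and eBayes, with Benjamini-Hochberg adjustment, and calling was tested on simulated data. Groups follow the sample labels. The number of arrays limits the precision.

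Kif27 and Cfap44 and all gene lists were chosen with earlier results of these data known. The named genes are both members, Retnlg as the brightest marker, and the 3 listed probes with a symbol or identifier most like each member, while the other 3 blood cell genes were named after their values were seen. An unnamed listed probe was passed over. Probe names came from the study's list, of which no fold change or p-value entered the calculations. Those values had decided which genes the list holds, and the exchanged grouping came from earlier work on them. Probe sequences were searched in the RefSeq promoter windows, which held 446 of them. Each such match includes bases before a start site, so none was used to name a gene, and counts over the gene lists, planned before, were not made. The single match of a list gene on its own strand, for Dnal4, lay 212 to 153 bases before the start site. Alternatives were scaling by the 75th percentile, normexp correction, the authors' values, other filters, outlier spots kept, slide and replicate blocks, unshrunk variances, each array left out and the exchanged labels.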

Additional observations from a re-analysis of the deposited data

How the results depend on the processing

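With the labels kept, the differences of Kif27 and Cfap44 kept their sign under both other normalizations, the authors' values, outlier spots kept and a random slide block. They also stayed within 1 SD, but that SD, 0.48 for Kif27 and 0.37 for Cfap44, exceeds the differences themselves, and normexp correction lowered them from 0.20 to 0.096 and from 0.27 to 0.094. With each array left out, Kif27 ranged from 0.0072 to 0.56 and Cfap44 from 0.10 to 0.54. They moved by more than 1 SD with slide as a fixed block, to -0.52 and -0.28, where Kif27 passed the study's thresholds with the sign reversed, and Kif27 also with exchanged labels, to 0.68, or 0.68 from the authors' values. Combining the exchange with another normalization was chosen after seeing the data. The replicate number as a block left the differences at 0.20 (standard error 0.18) for Kif27 and 0.27 (standard error 0.15) for Cfap44, with 0 of the 2 genes past the thresholds and 770 of all probes. Deviations of same-numbered arrays from their group means correlated at -0.036, -0.25 and -0.19. The DMDD group spans both slides, so these values cannot show whether same-numbered arrays were paired, and the labels give only a number. The 622 probes past the thresholds under the labels became 21 after normexp correction, 1440 without a filter, 318 with probes well above background on all 6 arrays, 1154 with slide as a fixed block and 240 with unshrunk variances, and 525 to 2145 with each array left out. The cause was not tested. Processed signals were 34.5 to 76.3 for the Kif27 spots and 21.0 to 45.0 for the Cfap44 spots. The array medians were 46.7 to 58.5. An offset of 50 added to signals of this size shrinks a log2 difference, and its part in the values after normexp correction was not tested. The planned settings for the cilium gene lists were not run, because their probes could not be named.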
